A study of Mus musculus with 8 samples.

Results

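The lower glycolysis enzymes are the 10 genes Gpi1, Aldoa, Tpi1, Gapdh, Pgk1, Pgam1, Pgam2, Eno1, Eno3 and Pkm, taken by gene symbol from the 27179 genes of the count table. All 10 were present and all 10 passed the filter on low counts, with between 1498 and 23057 counts in the library where each was lowest. RNA was sequenced from neonatal cardiomyocytes (NCMs) of C57Bl/6J mice, each library being made from 1 male heart taken on postnatal day 0 (PND0). The dams breathed filtered air (FA, replicates 2, 3, 4 and 6) or diesel exhaust (DE, replicates 1, 3, 5 and 7) through most of gestation, and no other treatment or allele separated the groups. Hearts were trimmed of atrial tissue and non-myocytes were reduced by adhesion before the RNA was taken, so the cells were an enriched and not a pure population. The dam of each pup is not given, so p-values measure the spread between these libraries, some of which may share a litter.

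Glycolysis splits glucose into pyruvate in the cytosol. After glucose has entered the cell and been phosphorylated, the lower pathway isomerises the sugar phosphate, cleaves it, oxidises the resulting trioses and recovers ATP at the steps of phosphoglycerate kinase and pyruvate kinase. The fetal heart relies strongly on glucose and lactate, and the heart turns to fatty acids in the days after birth. Some steps have a widely expressed enzyme and a striated muscle enzyme, as with Eno1 and Eno3 for enolase and Pgam1 and Pgam2 for phosphoglycerate mutase. Many glycolytic genes are known targets of the hypoxia-inducible factor HIF, whose core motif is written ACGTG or GCGTG.

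On GRCm38 (mm10) the genes lie on 7 chromosomes, so they are not a cluster. The first steps are encoded by Gpi1 (glucose-6-phosphate isomerase, Entrez 14751, chr7:34201327-34230336, minus strand), Aldoa (aldolase, Entrez 11674, chr7:126795234-126800994, minus) and Tpi1 (triosephosphate isomerase, Entrez 21991, chr6:124810586-124814158, minus). Gapdh, the oxidising enzyme (Entrez 14433, chr6:125161852-125166467, minus), and Pgk1, the first ATP-forming kinase (Entrez 18655, chrX:106187100-106203699, plus), follow. The mutases are Pgam1 (Entrez 18648, chr19:41911871-41918665, plus) and Pgam2 (Entrez 56012, chr11:5801637-5803796, minus). The enolases are Eno1 (Entrez 13806, chr4:150236708-150248879, plus) and Eno3 (Entrez 13808, chr11:70653125-70662513, plus). Pkm (Entrez 18746, chr9:59656576-59679372, plus) encodes the pyruvate kinases PKM1 and PKM2, which a count per gene cannot tell apart.

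Stretches of promoter are shown for 3 genes that behaved differently in the results that follow. Pgk1 was called higher in DE, Pgam1 was high in 2 of the 4 DE libraries, and Pgam2 is the muscle partner of Pgam1. Each is the 250 bases before the RefSeq start site on GRCm38.p6, 5′ to 3′ along the gene, with ACGTG or GCGTG on either strand in capitals.
Pgk1, chrX:106186850-106187099, plus strand: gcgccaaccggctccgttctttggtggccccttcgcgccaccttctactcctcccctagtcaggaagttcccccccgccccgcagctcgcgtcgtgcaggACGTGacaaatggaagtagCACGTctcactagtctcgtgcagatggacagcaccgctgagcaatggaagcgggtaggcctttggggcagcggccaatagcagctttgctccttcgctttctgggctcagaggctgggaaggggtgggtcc
Pgam1, chr19:41911621-41911870, plus strand: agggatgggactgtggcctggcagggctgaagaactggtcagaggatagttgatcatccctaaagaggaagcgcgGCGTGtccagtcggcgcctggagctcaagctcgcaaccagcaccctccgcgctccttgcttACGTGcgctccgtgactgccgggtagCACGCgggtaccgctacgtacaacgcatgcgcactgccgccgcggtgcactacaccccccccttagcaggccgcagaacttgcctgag
Pgam2, chr11:5803797-5804046, minus strand: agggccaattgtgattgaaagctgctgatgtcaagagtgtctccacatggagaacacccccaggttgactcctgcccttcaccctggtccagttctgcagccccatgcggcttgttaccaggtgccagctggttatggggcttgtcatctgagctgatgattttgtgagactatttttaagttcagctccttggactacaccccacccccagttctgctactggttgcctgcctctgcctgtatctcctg
The Pgk1 window held 2 matches, beginning 150 and 131 bases before the start. In the Pgam1 window 3 matches began 175, 114 and 88 bases before the start, and the Pgam2 window held 0. RefSeq gave 15 such windows for the 10 genes, because Aldoa, Eno1 and Pkm have several start sites. A match was present in 10 windows, belonging to 7 genes, while 38.6% of all 32851 mouse promoter windows of this length held one. Some windows of Aldoa, and some of Eno1, overlap and hold the same matches, so the 10 windows are not separate. The windows of Tpi1, Gpi1 and Pgam2 held none. CACGTG, the E-box of Myc and ChREBP type, was in 0 of the 15 windows and in 6.02% of all promoters, and the MEF2 core (CTA, 4 bases of any kind, TAG) was in 0 and in 3.20%. CACGTG contains ACGTG. These are matches of letters and not measured binding.

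The libraries held between 17943024 and 39839737 counts. Values are CPM, counts scaled to a common library size with TMM factors, and differences are log2 fold changes of DE against FA ± standard error (SE) from edgeR's quasi-likelihood test over 14966 genes. Calls needed a Benjamini-Hochberg adjusted p of at most 0.05 and a difference of at least 25%. The sample names hold the number 11 in the case of all 4 FA libraries, DE 1 and DE 7, and the number 12 in that of DE 3 and DE 5. What the number stands for is not stated, and since no FA library carries 12, the number and DE cannot be told apart in those libraries. Over all genes, 448 (2.99%) were called between the DE libraries with 11 and FA in a model of 3 groups. The libraries also differed by transcript length. The median of 3009 genes with transcripts up to 2 kb minus that of 1821 genes of 6 kb or more, each gene taken around its mean over libraries, was -0.488 and -0.421 (log2) in FA 2 and 4, 0.211 and 0.064 in FA 3 and 6, -0.111 and -0.133 in DE 1 and 7, and 0.384 and 0.475 in DE 3 and 5. The transcripts of the 10 genes are 0.84 to 2.88 kb long.

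Tpi1, Pgk1 and Pkm were called higher in DE NCMs, and the other 7 genes of the lower pathway were not called. All 10 estimates were above 0, ranging from 0.14 to 0.53 (log2) around a median of 0.31, against a median of 0.0037 over all tested genes. That is 3 of 10 called, all higher in DE. Among all tested genes 5.8% were called, with 3.58% higher and 2.22% lower in DE. The higher ones thus made up 61.8% of the calls, against 78.7% when counts were scaled by library totals alone. Every DE library was above every FA library for 4 of the 10 (Tpi1, Pgk1, Eno1 and Pkm), against 7.44% of all tested genes. Without FA 2, FA 4, DE 7, DE 3 or DE 5, each left out alone, 0 of the 10 were called by edgeR's quasi-likelihood test, and without FA 3 Tpi1 alone was called. Of all tested genes, the same fits called 1.69% without FA 2, 1.53% without FA 4, 4.64% without DE 7, 1.82% without DE 3, 3.56% without DE 5 and 2.80% without FA 3. The log2 fold changes in these leave-one-out fits stayed between 0.44 and 0.57 for Tpi1, 0.43 and 0.53 for Pgk1, and 0.35 and 0.44 for Pkm.

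**Figure D1:**
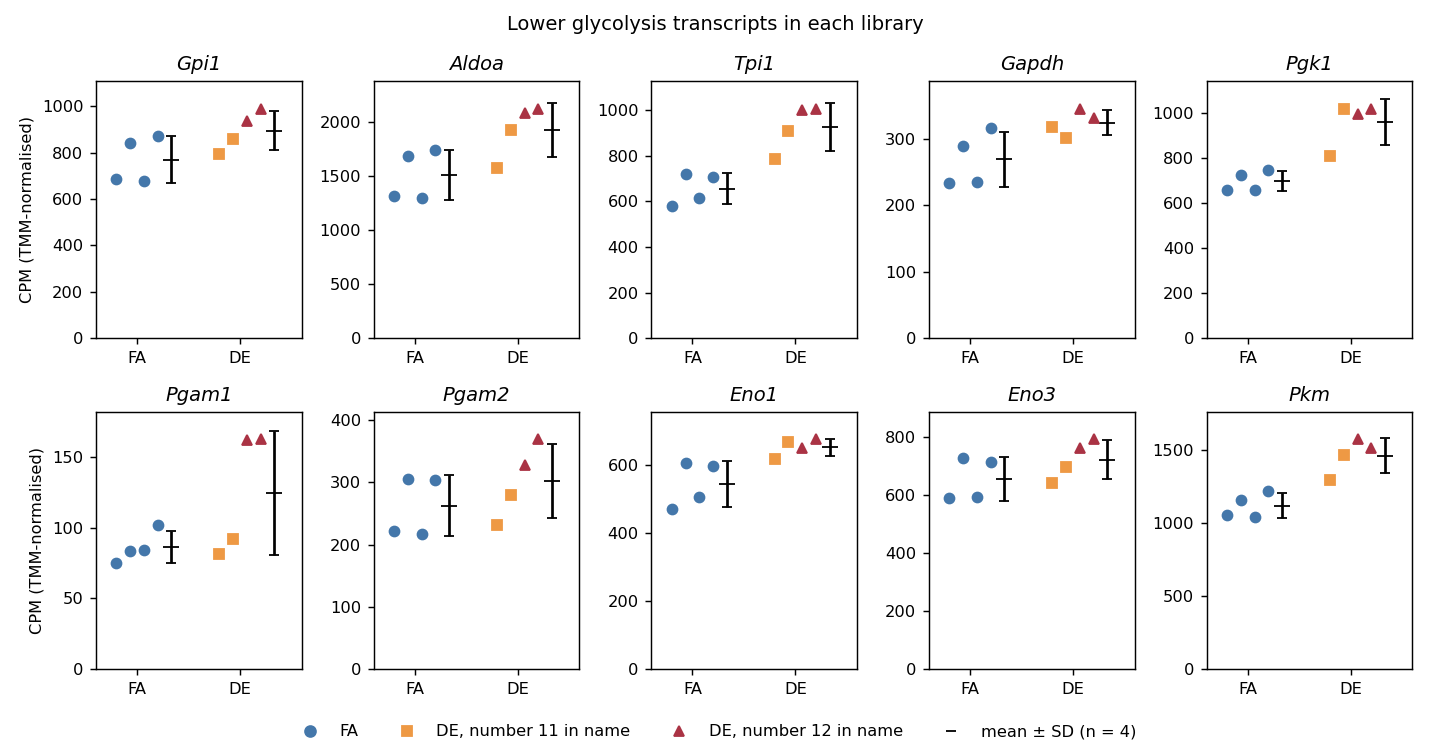
Level of each gene in each library, in CPM on axes that start at 0, with FA and DE side by side and bars for the mean ± SD of 4 libraries. Tpi1, Pgk1, Eno1 and Pkm show no overlap between FA and DE, and for Pgam1 the DE libraries with the number 12 stand at 162 CPM, above the other 6.

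Together the 10 genes took 0.569% to 0.713% of the counts of an FA library and 0.737% to 0.934% of those of a DE library. The mean share was 0.641% ± 0.0732 (SD, n = 4) in FA and 0.850% ± 0.0879 (SD, n = 4) in DE. Within DE, the libraries with 11 gave 0.737% and 0.825% and those with 12 gave 0.904% and 0.934%. In bulk RNA, a change in the number of cells of a type and a change in the RNA per cell cannot be told apart.

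Among the first 3 enzymes, Tpi1 changed most. Triosephosphate isomerase interconverts the 2 products of aldolase so that both can be oxidised. Its level was 578, 721, 615 and 704 CPM in FA 2, 3, 4 and 6, and 783, 908, 1000.2 and 1005 CPM in DE 1, 7, 3 and 5. All DE libraries lay above all FA libraries, with DE 3 and 5 highest. Tpi1 rose by 0.50 ± 0.11 (log2), 1.41-fold (adjusted p = 0.0323).

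Aldoa, which cleaves fructose-1,6-bisphosphate, stood at 1311, 1687, 1300.4 and 1735 CPM in FA 2, 3, 4 and 6, and at 1575, 1927, 2084 and 2121 CPM in DE 1, 7, 3 and 5. DE 1 lay below FA 3 and FA 6, so the groups overlapped. The log2 fold change was 0.35 ± 0.13 and was not called (adjusted p = 0.135). Gpi1, which converts glucose-6-phosphate to fructose-6-phosphate, ranged from 679 to 870 CPM in FA and from 795 to 989 CPM in DE. Its groups also overlapped, and its log2 fold change of 0.22 ± 0.12 was not called (adjusted p = 0.262).

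Gapdh oxidises glyceraldehyde-3-phosphate and is often used as a reference gene. It stood at 234, 290, 235 and 316 CPM in FA 2, 3, 4 and 6, and at 318, 301, 345 and 331 CPM in DE 1, 7, 3 and 5. The FA libraries formed a low pair (2 and 4) and a high pair (3 and 6), and only DE 7 lay within the FA range. The log2 fold change was 0.27 ± 0.12 and was not called (adjusted p = 0.176). Pgk1 transfers the phosphate that yields the first ATP of the pathway. It was measured at 656, 724, 659 and 744 CPM in FA 2, 3, 4 and 6, and at 809, 1018, 994 and 1015 CPM in DE 1, 7, 3 and 5. No DE library reached down to the FA range, and DE 1 was the lowest DE library by a clear gap. Pgk1 rose by 0.46 ± 0.10 (log2), 1.38-fold (adjusted p = 0.0293).

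Pyruvate kinase closes the pathway. Pkm stood at 1054, 1158, 1042 and 1222 CPM in FA 2, 3, 4 and 6, and at 1297, 1466, 1573 and 1515 CPM in DE 1, 7, 3 and 5. Again all DE libraries were above all FA libraries. Pkm rose by 0.39 ± 0.10 (log2), 1.31-fold (adjusted p = 0.0461), close to the threshold.

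Phosphoglycerate mutase moves the phosphate between carbons before enolase acts. Pgam1, the widely expressed phosphoglycerate mutase, was at 75.2, 83.6, 84.5 and 102 CPM in FA 2, 3, 4 and 6, at 81.7 and 91.9 CPM in DE 1 and 7, and at 162 CPM in both DE 3 and DE 5. DE 1 and 7 lay inside the FA range and DE 3 and 5 well above it. Over all libraries the log2 fold change was 0.53 ± 0.22, the highest estimate of the 10, and it was not called (adjusted p = 0.153). Between the DE libraries with 12 and those with 11 the log2 fold change was 0.90 ± 0.15, 1.87-fold (adjusted p = 0.0339). Pgam1 was the only one of the 10 called in that comparison, in which 0.528% of all tested genes were called higher in 12. Against FA, Pgam1 was 0.91 ± 0.12 (log2) higher in DE 3 and 5 (adjusted p = 0.00175), and the log2 fold change of DE 1 and 7 was 0.01 ± 0.13 (adjusted p = 0.983).

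Pgam2, the muscle enzyme of the same step, was at 222, 306, 218 and 303 CPM in FA 2, 3, 4 and 6, and at 231, 280, 327 and 369 CPM in DE 1, 7, 3 and 5. DE 1 and 7 lay between the low and the high pair of FA libraries. The log2 fold change was 0.20 ± 0.16 and was not called (adjusted p = 0.461), and in the DE libraries with 11 alone, set against FA in the model of 3 groups, the estimate was -0.04 ± 0.17.

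Of the enolases, which form phosphoenolpyruvate, Eno1 stood at 471, 605, 505 and 597 CPM in FA 2, 3, 4 and 6, and at 618, 667, 651 and 676 CPM in DE 1, 7, 3 and 5. The groups did not overlap, with FA 3 just under DE 1, but the log2 fold change of 0.26 ± 0.10 was not called (adjusted p = 0.149). Eno3, the muscle enolase, stood at 590, 731, 596 and 714 CPM in FA 2, 3, 4 and 6, and at 642, 697, 764 and 793 CPM in DE 1, 7, 3 and 5. DE 1 and 7 lay within the FA range. Its log2 fold change of 0.14 ± 0.11 was the lowest of the 10 (adjusted p = 0.456).

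A common pattern among the libraries ran through most of these genes. FA 3 and 6 were both above FA 2 and 4 in 9 of the 10, a pattern picked after its values were seen and present in 29.2% of all tested genes, and DE 3 and 5 were both above the other 6 libraries in 8 of the 10, against 14.3% of all tested genes. The same libraries had the higher medians of short transcripts within their groups. The part of transcript length in the members' changes was not tested as a cause, but values with offsets that removed each library's trend with length and GC content were computed over 13851 genes. With these offsets, Tpi1 and Pgk1 were still called in DE, at 0.39 each (log2), against 6.38% of genes called higher. Pkm was not called, at a log2 fold change of 0.28 that is under the 25% threshold (adjusted p = 0.0402). The median over the 10 was then 0.19, with Pgam1 highest at 0.42 and not called (adjusted p = 0.133), Aldoa at 0.20, Gpi1 at 0.18, Eno1 at 0.14, Gapdh at 0.11, Eno3 at 0.01 and Pgam2 at 0 (log2).

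Set against FA in the model of 3 groups, the DE libraries with 11 gave 0 calls among the 10 by edgeR's quasi-likelihood test, where 2.99% of all tested genes were called. Of the 10 estimates 9 were above 0, with a median of 0.21. At an unadjusted p under 0.05 there were 3, a count not set against all genes here. The log2 fold changes of Tpi1, Pgk1 and Pkm were then 0.37 (adjusted p = 0.145), 0.39 (adjusted p = 0.114) and 0.30 (adjusted p = 0.197). Those with 12 gave 5 calls, namely Aldoa, Tpi1, Pgk1, Pgam1 and Pkm, with all 10 estimates above 0 and a median of 0.44, where 9.98% of all tested genes were called higher. Both comparisons use the same FA libraries. Between 12 and 11 directly, all 10 estimates were above 0 with a median of 0.22, and 9 of them were not called.

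**Figure D2:**
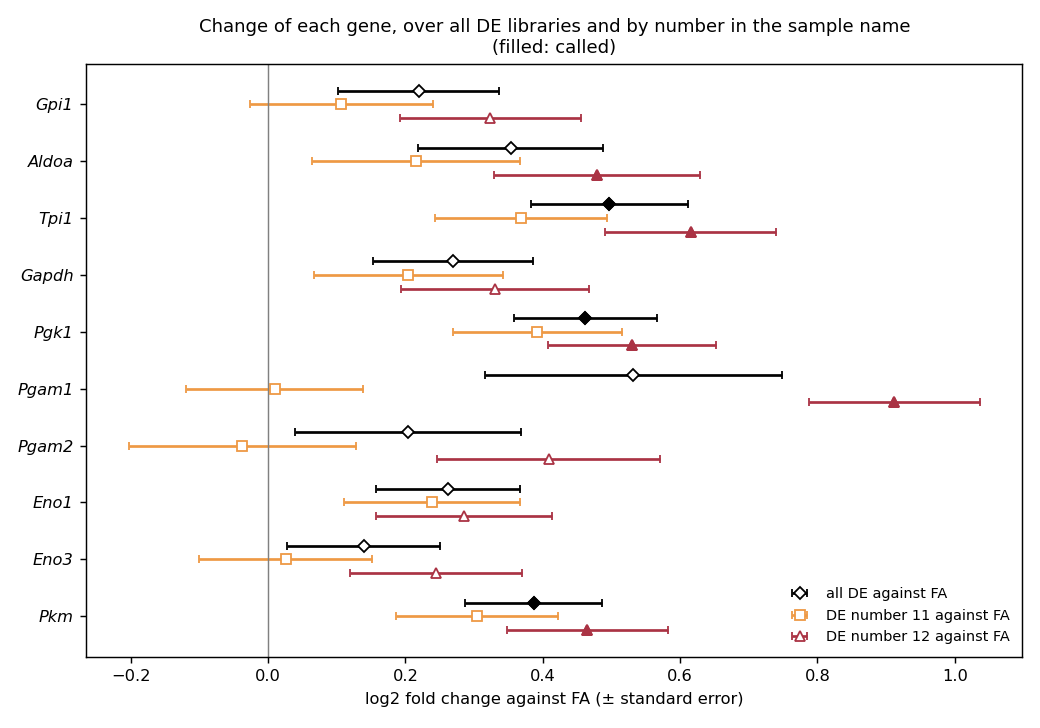
Log2 fold change of each gene against FA, for all DE libraries, for those with number 11 in the name and for those with number 12, as estimates ± SE with filled symbols for called genes. Tpi1, Pgk1 and Pkm stay at 0.30 or more in all 3 comparisons, while Pgam1 is at 0.01 with number 11 and at 0.91 with number 12.

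With the offsets in the model of 3 groups, Tpi1 and Pgk1 were called in the DE libraries with 11 as well, at 0.35 (adjusted p = 0.0353) and 0.36 (adjusted p = 0.0451), where 4.06% of genes were called higher. In those with 12, Tpi1, Pgk1 and Pgam1 were called, at 0.42 (adjusted p = 0.00874), 0.41 (adjusted p = 0.0135) and 0.75 (adjusted p = 0.00109), where 9.33% were called higher. The values of Tpi1 and Pgk1 thus lay within 0.07 of each other across the numbers, and their difference between 12 and 11 was 0.07 and 0.06 (adjusted p = 0.786 and 0.833). Pgam1 still differed between 12 and 11, by 0.76 (adjusted p = 0.0261), against 0.332% of genes called higher. Aldoa and Pkm, called in the libraries with 12 without offsets, had 0.19 and 0.25 with them and were not called.

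The levels per length of transcript spanned 20.0-fold in FA. In CPM per kb, Aldoa led with 974 ± 152 (SD, n = 4), followed by Pkm at 460 ± 35.5, Eno3 at 420 ± 48.0, Tpi1 at 407 ± 42.8 and Pgk1 at 381 ± 24.6. Pgam2 at 312 ± 58.4, Eno1 at 269 ± 33.0, Gpi1 at 267 ± 35.1 and Gapdh at 189 ± 28.8 came next, and Pgam1 was last at 48.6 ± 6.26. Neighbours in this order had overlapping ranges over libraries except Aldoa and Pkm, Gpi1 and Gapdh, and Gapdh and Pgam1. In DE the levels were 1244 ± 161 for Aldoa, 602 ± 48.9 for Pkm, 575 ± 64.9 for Tpi1, 525 ± 55.2 for Pgk1 and 463 ± 43.6 for Eno3. Eno3 thus had rank 3 in FA and rank 5 in DE, although its DE range overlapped those of Pgk1 and Tpi1.

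These levels depend on how reads that fit several places were counted, which the sources used here do not state. In the GENCODE vM21 transcripts, 82.5% of the 50-base windows of Gapdh also occur in another gene, 218 genes in all, among them the pseudogene Gapdh-ps15. The share was 72.2% for Eno1, 68.0% for Pgk1, 41.5% for Pgam1, 34.4% for Pkm, 19.3% for Gpi1, 13.5% for Aldoa and 7.51% for Tpi1, and it was 0 for Pgam2 and Eno3. With windows of 100 bases it was 78.1% for Gapdh, 67.03% for Pgk1, 59.0% for Eno1 and 39.7% for Pgam1, while Tpi1 fell to 0.796%. The low place of Gapdh, Eno1 and Pgam1 is therefore uncertain, and Tpi1 is the called gene with the least shared sequence. Eno1b, a retrocopy of Eno1, took 9.72% to 10.2% of the sum of both in FA and 10.1% to 11.1% in DE. Adding the counts of the retrocopies and pseudogenes named in the table (Gapdh-ps15, Aldoart1, Aldoart2 and Eno1b) to their parents left the same 3 genes called. None of these copies belongs to Tpi1, Pgk1 or Pkm, so this step could not change their counts. The part of shared sequence in the calls of these 3 genes was not tested.

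**Figure D3:**
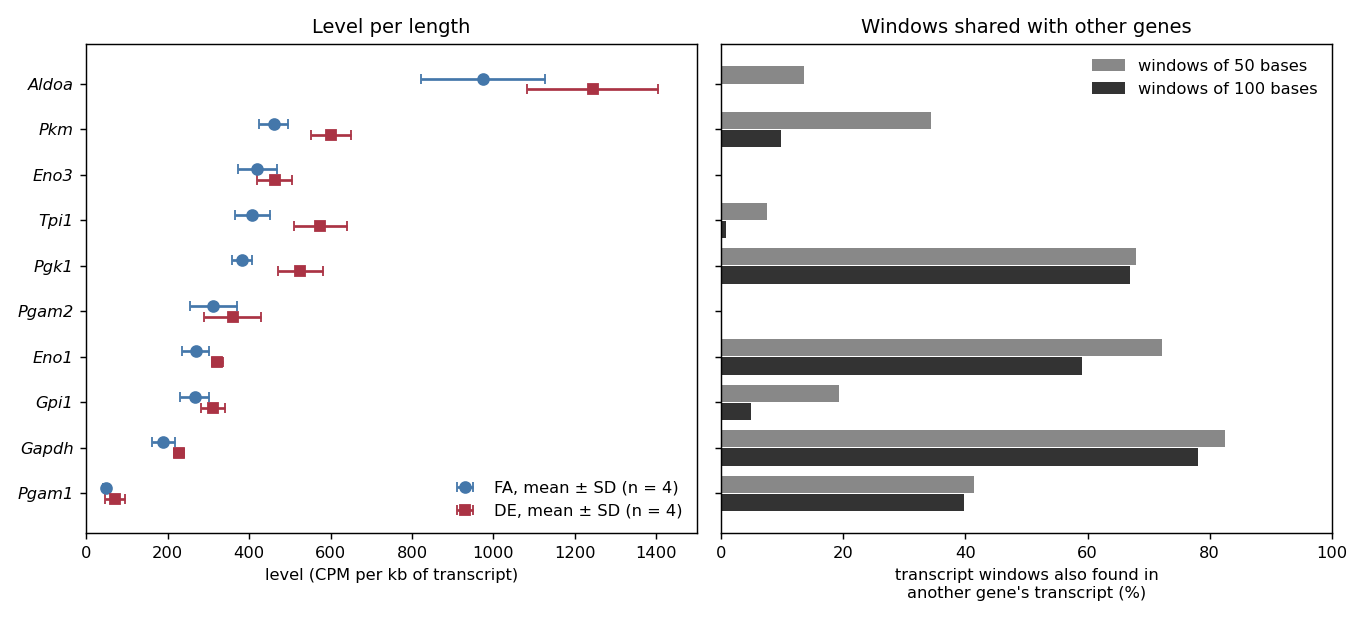
Left, mean level ± SD of each gene in FA and DE in CPM per kb; right, the percentage of its transcript windows of 50 and 100 bases that also occur in another gene. Aldoa leads at 974 CPM per kb in FA, and Gapdh, ninth of 10, has the most shared windows at 82.5%.

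Because the partners of a step are measured in the same library, their ratio shows whether they moved unequally. The ratio of Eno3 to Eno1 was 1.253, 1.207, 1.179 and 1.196 in FA 2, 3, 4 and 6, and 1.039, 1.045, 1.174 and 1.174 in DE 1, 7, 3 and 5. All FA values were above all DE values, although DE 3 and 5 came within 0.01 of FA 4. The mean log2 ratio was 0.13 lower in DE (exact two-sided permutation test, p = 0.0286, the smallest that 4 against 4 allows, and 0.0571 adjusted over the 2 ratios). With number 11 only, the difference was -0.21 (exact permutation p = 0.133, the smallest possible). Eno3 and Eno1 differ in shared sequence as given above, and the part of that in the ratio was not tested.

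The ratio of Pgam2 to Pgam1 was 2.95, 3.66, 2.58 and 2.98 in FA 2, 3, 4 and 6, 2.83 and 3.05 in DE 1 and 7, and 2.02 and 2.27 in DE 3 and 5. Only the number 12 libraries lay below the FA range. The mean log2 difference was -0.27 (exact two-sided permutation test, p = 0.2, adjusted 0.2), and with number 11 only it was -0.04 (exact permutation p = 0.933). As deposited, the muscle form had more counts than its partner in every library at both steps. With the counts of Eno1b added to Eno1, however, Eno3 had the fewer counts in DE 1 and DE 7, so the order of the enolases is uncertain there.

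**Figure D4:**
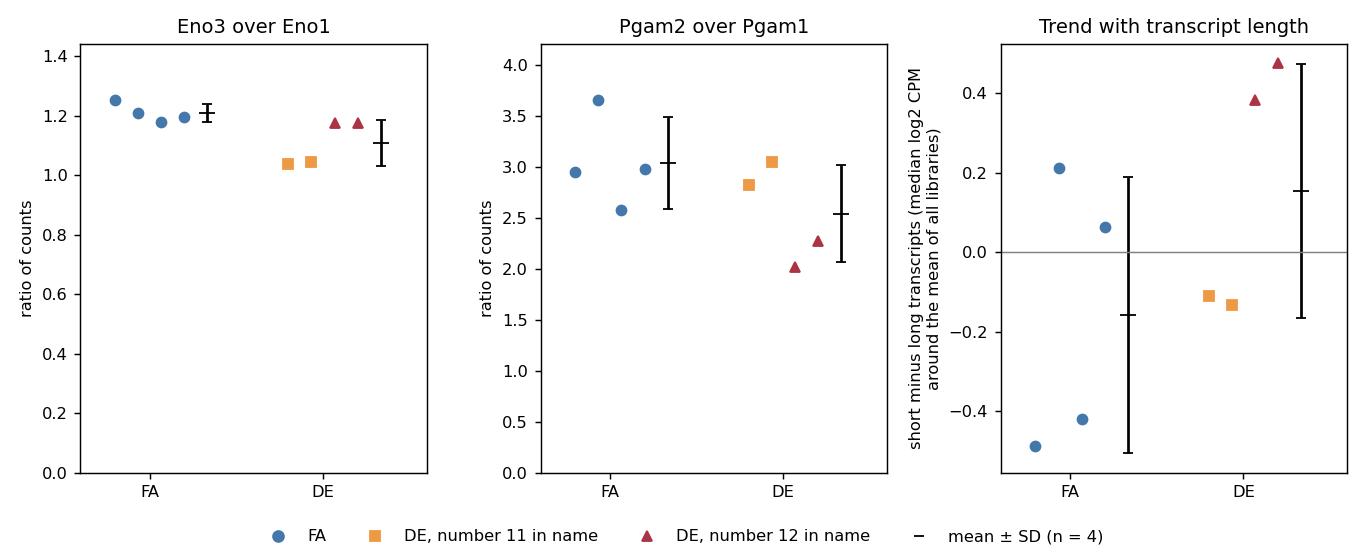
Ratio of the muscle to the widely expressed transcript for enolase and phosphoglycerate mutase in each library, and the trend with transcript length as the median log2 level of short minus long transcripts. The Eno3 to Eno1 ratio is lowest in DE 1 and 7 (1.039 and 1.045), the Pgam2 to Pgam1 ratio in DE 3 and 5 (2.02 and 2.27), and the length trend is highest in DE 3 and 5 (0.384 and 0.475).

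Isoforms typical of other tissues had low counts. Aldoc, the aldolase known from brain, rose by 0.69 ± 0.15 (log2), 1.61-fold (adjusted p = 0.0254), from 12.4 to 17.9 CPM in FA to 19.3 to 27.3 CPM in DE, without overlap. In the DE libraries with 11 against FA it was not called, at 0.67 (adjusted p = 0.0655). Eno2, the neuronal enolase, was at 2.40 to 3.70 CPM with a log2 fold change of 0.06 ± 0.18 (adjusted p = 0.850). Gapdhs, the enzyme of sperm, was at or below 1.04 CPM, with -1.38 ± 0.41 (adjusted p = 0.0740). It was called by the likelihood ratio test and not by DESeq2. Eno4 and Pklr were too low to be tested, and Pgk2 had 0 counts in every library.

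Among the 10 genes, Gpi1 and Eno3 had the most similar profiles over the 8 libraries, with a root mean square difference of 0.05 in centred log2 CPM, followed by Pgk1 and Pkm at 0.06 and Tpi1 and Pgk1 at 0.07. Pgam1 was furthest from the mean profile of the 10, at 0.24. The values share the libraries' depth and length trend and are a description. Over 9180 genes that averaged 10 CPM or more, the non-members nearest to the mean profile were Pdlim1 (0.04), Sae1, S100a13, Prdx1 and Impdh2 (0.05 each), none of them called in DE against FA. The spread within FA ran from 6.44% of the mean for Pgk1 to 18.7% for Pgam2 (coefficient of variation), and within DE from 3.91% for Eno1 to 35.1% for Pgam1.

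Other genes of glucose use were taken from a list of 45 by role, 40 of which passed the filter on low counts. The fit called 7 higher and 1 lower in DE, and the median over the 40 was 0.03 (log2). Among all tested genes 3.58% were called higher and 2.22% lower. At glucose entry, Slc2a1, the widely expressed transporter GLUT1, rose by 0.95 ± 0.13 (log2), 1.94-fold (adjusted p = 0.00308), from 25.2 to 28.5 CPM in FA to 42.7 to 60.5 CPM in DE. Slc2a3, the transporter GLUT3, was at 5.33 to 8.16 CPM in FA and 8.17 to 11.5 CPM in DE, without overlap, and its 0.55 ± 0.16 was not called (adjusted p = 0.0677), although DESeq2 and the likelihood ratio test called it. Slc2a4, the insulin-responsive transporter, had 0.03 ± 0.09 (adjusted p = 0.873). Of the hexokinases, Hk1 and Hk2 were tested and neither was called, at 0.14 ± 0.13 (adjusted p = 0.517) and 0.32 ± 0.15 (adjusted p = 0.196).

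Phosphofructokinase commits the sugar to the pathway just above aldolase. Pfkl, its liver-type subunit, rose by 1.17 ± 0.17 (log2), 2.26-fold (adjusted p = 0.00325), and Pfkp, the platelet-type subunit, by 0.59 ± 0.11, 1.50-fold (adjusted p = 0.0134). In the DE libraries with 11 against FA, Pfkp was at 0.43 and not called (adjusted p = 0.0548). Pfkm, the muscle-type subunit, had -0.04 ± 0.10 (adjusted p = 0.860). For the 5 tested regulators of this step (Pfkfb1, Pfkfb2, Pfkfb3, Pfkfb4 and Tigar), edgeR's quasi-likelihood test, its likelihood ratio test and DESeq2 gave 0 calls. In the first, 3 of the 5 were at an unadjusted p under 0.05, as were 3828 of all 14966 tested genes.

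Beyond pyruvate, Ldha, the lactate dehydrogenase subunit that favours lactate formation, rose by 0.71 ± 0.10 (log2), 1.63-fold (adjusted p = 0.00405), from 675 to 767 CPM in FA to 1005 to 1273 CPM in DE. Ldhb, the heart-type subunit, had -0.06 ± 0.11 (adjusted p = 0.764). Slc16a3, the lactate exporter MCT4, was at 8.81 to 11.3 CPM in FA, 18.3 and 34.0 CPM in DE 1 and 7, and 62.9 and 62.0 CPM in DE 3 and 5. It rose by 2.13 ± 0.33 (log2), 4.37-fold (adjusted p = 0.00552), and like Pgam1 it was called between the DE libraries with 12 and 11, at 1.27 (adjusted p = 0.0339). Slc16a1, the transporter MCT1, had -0.11 ± 0.12 (adjusted p = 0.581).

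On the side and reverse branches, Phgdh, which draws 3-phosphoglycerate into serine synthesis, rose by 0.59 ± 0.16 (log2) (adjusted p = 0.0492) and Pcx, pyruvate carboxylase, by 0.68 ± 0.11 (adjusted p = 0.00810). With the libraries carrying 11 against FA, Phgdh was at 0.59 and not called (adjusted p = 0.115). Fbp2, the muscle fructose-bisphosphatase, which opposes phosphofructokinase, was low in FA at 2.27 to 3.73 CPM and lower in DE at 0.0249 to 0.344 CPM, with -3.99 ± 0.43 (adjusted p = 0.000628). For the 9 transcription factors known to act on such genes, all 3 tests again gave 0 calls. In the quasi-likelihood test 3 of the 9 were at an unadjusted p under 0.05, as were 3828 of all 14966 tested genes. Those 3 were Epas1, Arnt and Mef2a, and 6 of the 9 had estimates below 0. Hif1a had -0.22 ± 0.13 (adjusted p = 0.297), Epas1 0.34 ± 0.12 (adjusted p = 0.112) and Myc 0.07 ± 0.14 (adjusted p = 0.777). Arnt had -0.23 ± 0.10 (adjusted p = 0.167), with every DE library below every FA library. Mef2a had -0.74 ± 0.28 (adjusted p = 0.135), with overlap between the groups.

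**Figure D5:**
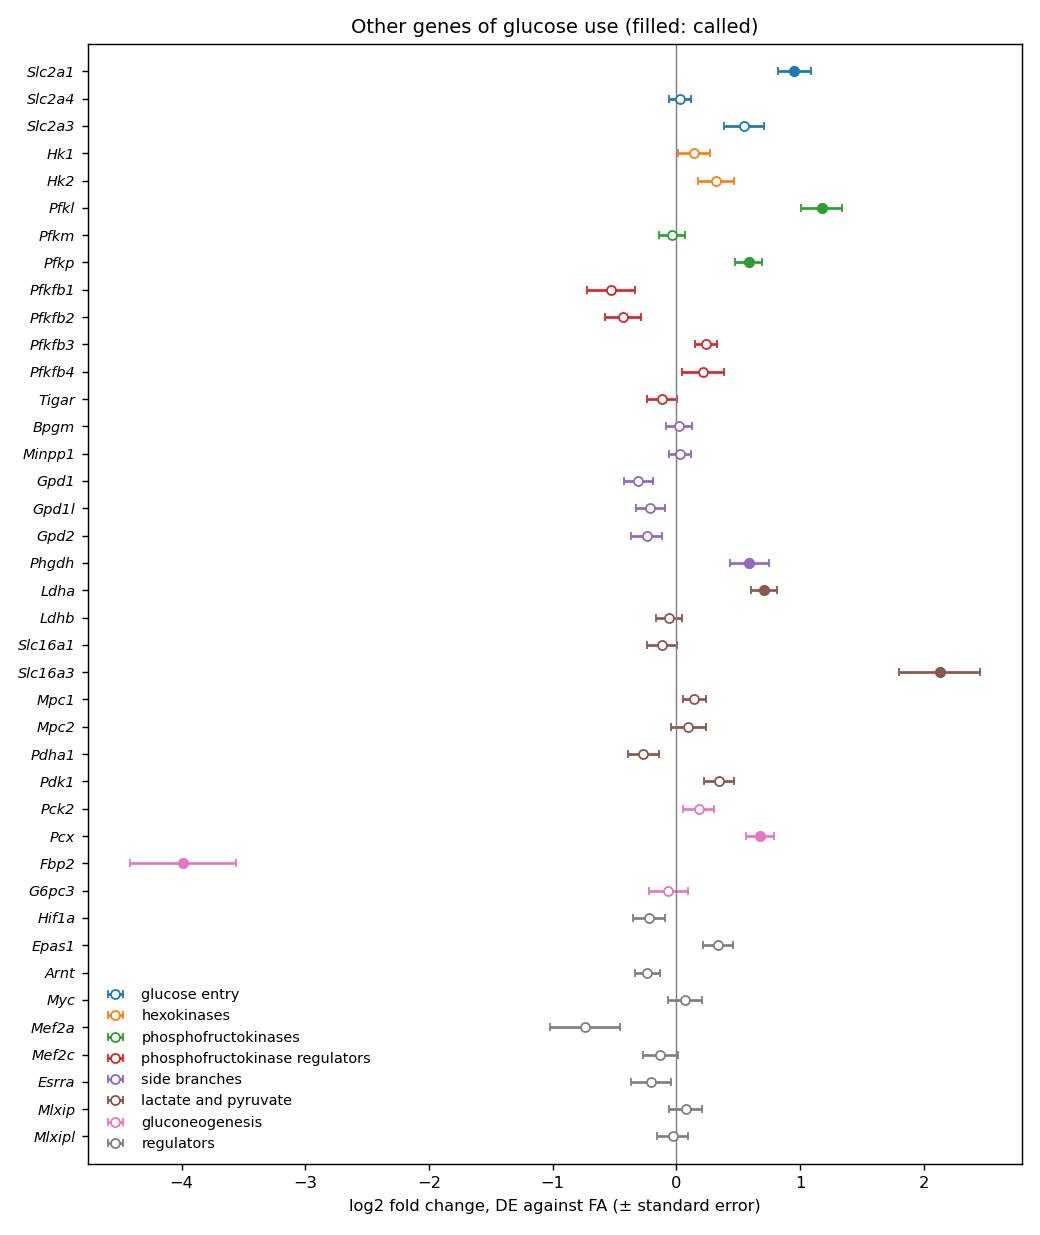
Log2 fold change ± SE of DE against FA for the 40 tested genes of glucose use, coloured by role, with filled symbols for called genes. Slc2a1, Pfkl, Pfkp, Phgdh, Ldha, Slc16a3 and Pcx are called higher and Fbp2 is called lower, at -3.99.

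Cardiomyocyte markers were abundant in every library, which fits the label, with a summed level of 72130 to 77270 CPM over 10 genes in FA and 60600 to 70600 CPM in DE. Of the 10, Myh6 and Pln were called lower and Myh7 higher, and DESeq2 also called Ttn, whose log2 fold change in edgeR was -0.80. Over all 14966 tested genes, the quasi-likelihood test called 3.58% higher and 2.22% lower, and DESeq2 called 10.8%. In the former test 3828 genes were at an unadjusted p under 0.05. Markers of other cells moved as well. The sum of 8 fibroblast markers was 2007 to 3459 CPM in FA and 3653 to 6173 CPM in DE, with 2 called higher by edgeR's quasi-likelihood test (Col1a1 and Dcn), 6 called by DESeq2 and none at 0. Within DE it was 4532 and 6173 CPM in the libraries with 11 and 3653 and 4695 CPM in those with 12. Endothelial markers summed to 905 to 1192 CPM in FA and 961 to 1430 CPM in DE over 7 genes, and smooth muscle and pericyte markers to 1124 to 1764 and 795 to 1172 CPM over 6 genes. The quasi-likelihood test called 0 in either list, with 3 and 1 genes at an unadjusted p under 0.05, while DESeq2 called Egfl7, Emcn and Acta2. Leukocyte markers stayed at 12.5 to 18.5 CPM in FA and 15.6 to 26.3 CPM in DE over 7 genes, with Itgam called higher by the quasi-likelihood test and Cd68 by DESeq2, and erythroid markers at 759 to 1879 and 1208 to 2021 CPM over 6 genes, with Slc4a1 called higher. Skeletal muscle markers, of interest beside Eno3 and Pgam2, summed to 1035 to 1382 and 1118 to 1446 CPM over 9 genes, mostly Ckm, with Myod1 at 0 in all libraries. Neither edgeR nor DESeq2 called any of the 7 that were tested, 2 being at an unadjusted p under 0.05. Atrial markers summed to 521 to 1288 and 516 to 793 CPM over 5 genes, with 0 called by edgeR's quasi-likelihood test, 2 at an unadjusted p under 0.05 and Nppa called by DESeq2. The part of other cell types in the changes of the glycolytic genes was not tested.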

How the data were processed

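RNA from NCMs of 8 male neonates, 4 FA and 4 DE, was measured by stranded poly-A RNA-seq. The authors aligned reads to mm10 with the Ensembl transcriptome using TopHat, marked duplicates with Picard without removing them, processed alignments with GATK and counted with featureCounts. The deposited table holds raw, unnormalised counts for each Entrez gene. Which annotation was counted, whether strand was used and how reads with several placements were treated are not given in the sources used here. The methods state 3 samples per group for RNA-seq, and the table holds 4.

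Symbols were found for 25275 of 27179 genes (RefSeq, GRCm38.p6) and gene positions were taken from the same table. Counts were filtered with filterByExpr (minimum count 10), given TMM factors and fitted by exposure alone in edgeR 4.0.16 (R 4.3.3, quasi-likelihood test by glmQLFit and glmQLFTest), and p-values were adjusted after Benjamini and Hochberg across 14966 genes. The totals of 17943024 to 39839737 counts leave each of the 10 genes with at least 1498 counts, so the spread between libraries and not counting limits the precision. No pair of libraries within a group differed by less than sampling noise (chi-square per gene of at least 5.37). Isoform ratios were tested by exact permutation over libraries (scipy 1.17.1). Lengths and GC content came from GENCODE vM21 transcripts and were known for 92.55% of tested genes. Alternatives were DESeq2 1.42.0, the likelihood ratio test, a test against the 25% difference, other scaling factors, no filter, the number in the sample name as a term, number 11 libraries only, offsets from splines on length and GC content (5 degrees of freedom), pseudogene counts summed in, and each library left out. The model of 3 groups was added after the data were seen. Named genes were the 10 members, their isoforms and copies, the pathway and marker lists by role, and the 5 genes nearest in profile, of which 1 gene is not reported here. The members and lists were chosen with earlier results of these data known. The code was tested on simulated data.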

Additional observations from a re-analysis of the deposited data

Results flagged for a closer look

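Pgk1 in DE was flagged because 1 sample stood far from the others. DE 1 was at 809 CPM and the other 3 between 994 and 1018 CPM, so that the gap took 0.885 of the range, above the critical value of 0.829. In all, 24 groups were examined, and chance flags about 1 in 20. Without DE 1 the log2 fold change of Pgk1 rose to 0.53 and it was still called.

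Pgam1 was flagged because its level differed between the DE libraries with number 12 and those with number 11, by 0.903 on the log2 scale in the model of 3 groups, and this difference was tested (adjusted p = 0.0339 by edgeR's quasi-likelihood test). Both libraries with 12 were at 162 CPM, and those with 11 at 81.7 and 91.9 CPM, within the FA range of 75.2 to 102 CPM.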

How the results depend on the processing

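All 10 genes kept an estimate above 0 under all 20 alternatives, except Pgam2, which was at -0.038 with the number in the sample name as a term, at -0.043 with number 11 libraries only and at 0 with the offsets. The median of the 10, 0.311, was 0.188 with the offsets and 0.204 with number 11 libraries only, where Pgam1 was at 0.005 and Eno3 at 0.021.

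Against 3 of the 10 genes and 868 of all genes called, and 8 of the pathway list, DESeq2 called 3 and 1618, the likelihood ratio test 3 and 1603, the 25% difference built into the test 0 and 114 (5 of the list), the number as a term 0 and 448, number 11 libraries only 0 and 260 (6 of the list in both), the offsets 2 and 1567 (14 of the list), and the DE libraries with 12 against FA 5 and 3500 (17 of the list). Other scaling factors left the same 3 genes called. The calls over all genes were 61.8% higher, and 78.7% with library totals alone, 38.6% with the 25% difference in the test and 42.7% for the libraries with 12. No filter on low counts left Tpi1 and Pgk1, with Pkm at an adjusted p of 0.0543. Leaving out each library in turn gave 0 to 3 of the 10 genes and 237 to 1168 of all. The 10 genes had 0 calls without FA 2, FA 4, DE 7, DE 3 or DE 5, 1 (Tpi1) without FA 3 and the same 3 without FA 6 or DE 1. The log2 fold changes stayed between 0.44 and 0.57 for Tpi1, 0.43 and 0.53 for Pgk1, and 0.35 and 0.44 for Pkm, and their adjusted p reached 0.114, 0.111 and 0.160. The direction of these 3 held in each of these fits. The cause of the lost calls was not tested. The isoform ratios kept their direction in all 10 alternatives each. Leaving out a library allows no p under 0.0571 and number 11 only none under 0.133, so these say nothing about the calls.

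No paired analysis was possible because the groups share only replicate number 3, so that fewer than 2 pairs exist.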
